A study of Mus musculus with 18 samples.

Results

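The immediate response of wild-type mouse embryonic fibroblasts to transforming growth factor β1 (TGF-β1) was described across all genes by comparing the arrays taken after 1 h of treatment with those of untreated cells. The arrays were chosen by their titles, 3 at 1 h and 3 untreated, which makes 6 of the 18 arrays of the study, and arrays with the same number came from the same embryo and were paired. The cells were primary connective-tissue cells grown from 14-day embryos from which head and liver had been removed, with wild-type embryos numbered 1 to 3 and another set of 3 embryos labelled as knock-outs of NFI-C (gene symbol Nfic). Before treatment all cultures, the untreated ones included, stood for 4 to 6 h in culture medium with an albumin supplement and a mix of insulin, transferrin and selenium in place of serum. Treated cells received 12.5 ng/ml of TGF-β1 for 1 h, or for 10 h in the 3 further wild-type arrays whose levels are given here for reference only, without a test, since they share their untreated arrays with the 1 h comparison. The 10 h values are given in the order of the numbers in the titles, but these numbers do not pair all of them with the other arrays: after removal of group means the 10 h array numbered 1 correlated at 0.49 with the untreated array of its number, whereas those numbered 2 and 3 correlated at -0.06 and -0.20 with the untreated arrays of the same number and at 0.38 and 0.44 with those of the other number, 3 and 2. The cultures were grown in triplicate, the labels do not say whether a vehicle was added to the untreated cells, and the effect of TGF-β1 therefore cannot be told apart from that of the addition itself. Values are log2 expression levels of Affymetrix probe sets, changes are 1 h minus untreated with the standard error (SE) of limma, and n is 3 embryos per group throughout. The SE comes from a fit of the 12 untreated and 1 h arrays of both genotypes and draws on the spread of other genes. It is therefore not the spread of the 3 wild-type embryos alone.

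TGF-β1 binds a pair of receptor kinases at the cell surface, which phosphorylate the transcription factors SMAD2 and SMAD3; these join SMAD4, enter the nucleus and act on genes together with other factors. Among the first genes to respond in many cell types are those that limit the signal itself, such as the inhibitory SMADs and the corepressor SKIL. In fibroblasts the pathway is known for its later output, the production of matrix and the contractile proteins of the myofibroblast. Genes that respond to a stimulus without the synthesis of new proteins are called immediate early genes.

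After 1 h, 10 of 18 inhibitors of the SMAD pathway, all 4 Id genes and 10 of 23 immediate early genes outside the larger families were higher. Of 22 fibrillar matrix and 20 contractile genes 0 passed. Of all tested genes 2.74% did, so lists of this size can hold 0 calls at that share. The gene lists were written with earlier results of these data known. A list count set beside a share of all genes is therefore a description only. Of 13679 tested genes 375 (2.74%) passed the threshold of 0.05 for the adjusted p (limma with embryo as a block, Benjamini-Hochberg), 226 of them higher (1.65%) and 149 lower (1.09%). A change of at least 2-fold was reached by 44 of the higher (0.322% of the genes tested) and 7 of the lower genes (0.0512%). The median rise was 0.59 and the median fall -0.47 on the log2 scale, against a median of -0.01 over all tested genes, and 110 rises and 100 falls were smaller than 1.5-fold. Every gene that passed changed the same way in all 3 embryos, as did 42.2% of all genes. The 3 values of one condition lay entirely above those of the other for 192 of the 226 rises and 118 of the 149 falls, against 15.5% of all genes. At the edge of the threshold Ccdc122 passed at 0.29 ± 0.07 (limma adjusted p = 0.0498) and Sox11 did not at 0.52 ± 0.12 (0.0500), both named after their values were seen. An unadjusted p under 0.05 was found for 2487 genes.

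The count of genes depended on how the spread was estimated more than the list of large changes did. Without the embryo as a block 92 genes passed, 78 higher and 14 lower, and with all 18 arrays in the fit and the block, which takes the 10 h numbers as given, 113 passed; every one of these was among the 375. Without wild-type embryo 2 or 3 the count was 180 or 187, and a moderation of variances that follows the expression level gave 740, 347 higher and 393 lower, so that falls outnumbered rises there. Centring each array on its median gave 348 genes, 247 higher and 101 lower, and so 71% higher instead of 60.3%. Of the 44 rises of at least 2-fold 36 passed in all 16 alternatives and 42 without each embryo in turn. Of the 7 falls of that size Ppp1r3c passed in all 16, Zfp40 in the 15 in which it was tested, and 4 passed without each embryo in turn. With the mean of a gene's probe sets in place of the brightest, the change of 22 of the 109 named genes past the threshold shrank by over 1.5 times on the log2 scale, and 6 of these, Otub1, Tent5c, Klf5, Klf13, Tob2 and Zeb2, did not pass. Among those that still passed, the mean was 0.31 for Socs2, 0.31 for Klf9, -0.66 for Zfp40, -0.61 for Taf15, -0.37 for Cebpd and -0.36 for Sesn3.

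**Figure D1:**
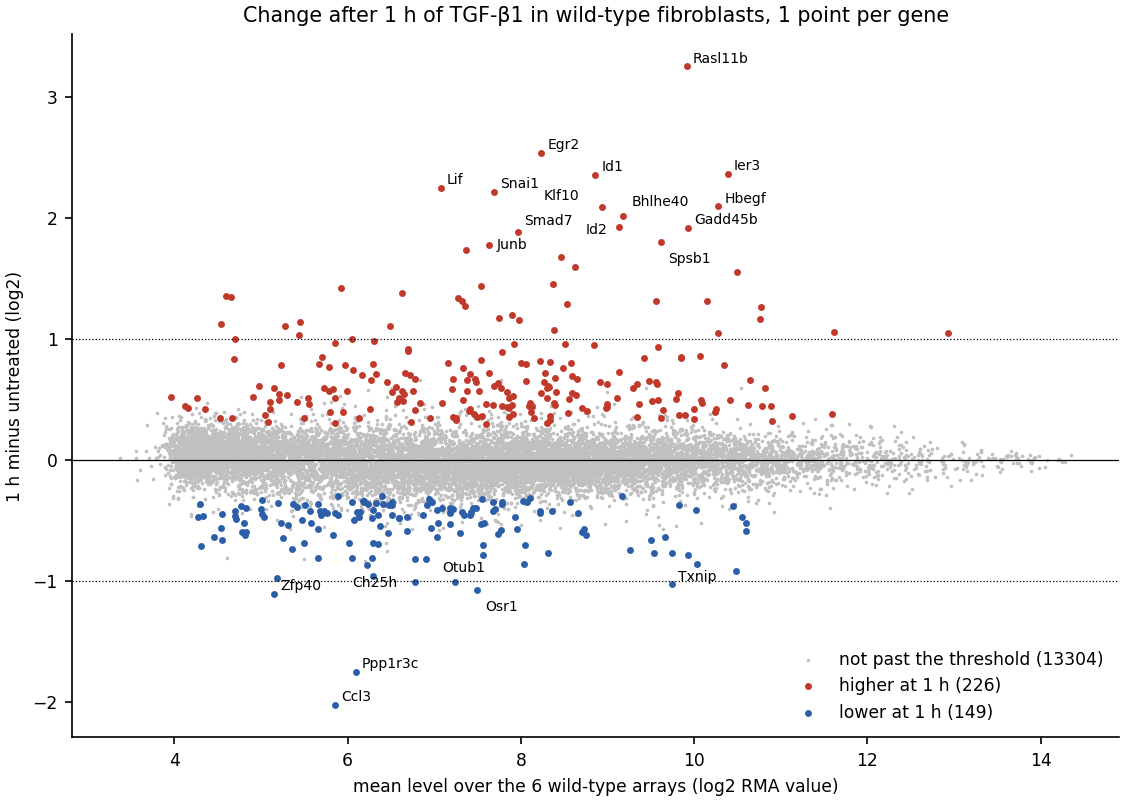
Each point is a tested gene, with its mean level over the 6 wild-type arrays (log2) on the horizontal axis and its change after 1 h of TGF-β1 (1 h minus untreated, log2) on the vertical axis; red points passed as higher (226), blue points as lower (149), grey points did not pass, and dotted lines mark 2-fold. Rasl11b stands alone at the top at 3.25, and Ccl3 and Ppp1r3c lie apart at the bottom.

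The arrays were alike in scale, with medians between 4.74 and 4.81, and arrays of a group correlated at 0.987 or more over all probe sets. Fibroblast markers were bright, with a mean over the 12 genes of the list between 11.55 and 11.78 in untreated and between 11.54 and 11.73 in treated wild-type cells, and 0 of 12 passed. Macrophage and leukocyte markers were also present, with a mean over the 18 genes of 10.11 in embryo 1 and of 8.64 and 8.55 in embryos 2 and 3 without treatment, against 9.96, 8.62 and 8.47 at 1 h. None of the 18 passed, and the nearest was the complement gene C1qb at -0.27 ± 0.08 (limma adjusted p = 0.13). Of 6 endothelial, 8 epithelial, 8 muscle, 8 neural and 5 erythroid markers tested 0 passed, out of 12, 13, 14, 14 and 12 listed. Means over the tested members were 4.93, 4.98, 5.48, 6.04 and 4.37 in untreated wild-type cells. The endothelial, epithelial and erythroid means lay near the array medians, so the absence of calls there says little. In the same order the lists had median changes of 0.03, 0.07, 0.03, 0.07 and 0.08, and 3, 3, 4, 3 and 1 of their members were below 0. The member of each list with the smallest p is named, so these values are not typical of the lists. The endothelial receptor Kdr was at 0.20 ± 0.10, the keratin Krt8 at 0.29 ± 0.07, the cardiac actin Actc1 at 0.20 ± 0.08, the glial Gfap at 0.30 ± 0.09 and the erythroid Slc4a1 at 0.15 ± 0.07.

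The largest change of all was that of Rasl11b, which encodes a small GTPase of the RAS superfamily. It read 8.43, 8.02 and 8.42 in untreated cells of embryos 1, 2 and 3 and 11.47, 11.64 and 11.52 at 1 h. The treated value was higher by 3.03, 3.62 and 3.11 in the 3 embryos, and the rise was 3.25 ± 0.13, or 9.54-fold (limma adjusted p = 1.1e-06; 95% confidence interval 2.96 to 3.55). At 10 h it read 9.54, 9.79 and 9.70, between the other groups. Of 19 inducible small GTPase genes tested Rasl11b and Rhob rose, the latter by 0.44 ± 0.06, and Rnd3 fell by 0.79 ± 0.14 (limma adjusted p = 0.0050 and 0.016). Over all tested genes 1.65% rose and 1.09% fell. Rhob and Rnd3 did not pass without the embryo block, nor Rnd3 without embryo 2 or 3 (adjusted p = 0.10 and 0.067).

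Many genes that restrain SMAD signalling rose. Of 18 inhibitors and corepressors tested 10 were higher and 0 lower, with a median change of 0.37, where 1.65% of all genes were higher. This list was written with earlier results of these data known, so the contrast is a description only. Smad7, an inhibitory SMAD that blocks the receptor, read 7.06, 7.16 and 6.87 before treatment, 8.91, 8.92 and 8.89 at 1 h and 8.16, 8.38 and 8.38 at 10 h. Its groups were far apart, with nearly equal values at 1 h, and it rose by 1.88 ± 0.09, or 3.68-fold (limma adjusted p = 3.2e-06). Smad6, the inhibitory SMAD better known from the BMP branch, read 7.33, 7.35 and 7.52 without treatment, 8.43, 8.73 and 8.51 at 1 h and 7.11, 7.33 and 6.97 at 10 h. The 1 h cultures lay above the untreated ones, by 1.16 ± 0.09 (7.5e-05), and the 10 h values lay among or below the untreated ones. Skil, a corepressor that binds SMADs, was 10.50, 10.14 and 9.92 without treatment and 11.44, 11.34 and 11.26 at 1 h. It was higher in every embryo without overlap, by 1.16 ± 0.09 (7.7e-05), and read 11.32, 11.19 and 11.01 at 10 h.

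Spsb1, a substrate adaptor of a ubiquitin ligase that targets the type II TGF-β receptor, was among the largest rises of the group. Its values were 8.93, 8.66 and 8.58 without treatment, 10.57, 10.59 and 10.41 at 1 h and 9.66, 9.98 and 10.20 at 10 h. The groups did not overlap and the change was 1.80 ± 0.09 (limma adjusted p = 5.8e-06), with 3 further Spsb1 probe sets at 0.96, 1.43 and 1.57. The corepressor gene Tgif1 rose by 0.63 ± 0.09 and Pmepa1, which binds and sequesters SMADs, by 0.45 ± 0.07 (limma adjusted p = 0.0033 and 0.0078), and the others that rose were Bambi, Dact1, Tgif2 and Tob2. Neither Tgif1 nor Pmepa1 passed without the embryo block, nor Pmepa1 without embryo 2 (adjusted p = 0.068), nor Tob2 without each embryo in turn (0.12, 0.29 and 0.09); without the block 4 of the list rose. The corepressor Ski was at 0.22 ± 0.06 and the SMAD ubiquitin ligases Smurf1 and Smurf2 at 0.28 ± 0.08 and 0.24 ± 0.07; none of them passed (0.12, 0.13 and 0.11).

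The receptors and ligands of the pathway gave a single call, near the share of 2.74% that passed over all tested genes. Of 28 TGF-β and activin ligands, receptors and SMADs tested 1 rose, Fstl3, which binds activin, by 0.36 ± 0.08 (limma adjusted p = 0.044), and 0 fell, with a median of -0.01. The receptor genes Tgfbr1, Tgfbr2 and Tgfbr3 were at 0.29 ± 0.08, -0.14 ± 0.07 and -0.13 ± 0.08 (limma adjusted p = 0.10, 0.30 and 0.41). The ligand genes Tgfb1, Tgfb2 and Tgfb3 were at 0.25 ± 0.12, -0.02 ± 0.07 and 0.09 ± 0.09. Tgfbr3 stood between 7.69 and 8.96 on the 6 arrays and at 4.86, 5.47 and 5.91 at 10 h, and Tgfb1 between 7.58 and 8.53 and at 10.14, 10.46 and 10.23, so the values of both at 10 h lay outside the range of the first hour. Of 17 BMP ligands and antagonists 0 passed, which a list of this size can hold at a share of 2.74%. The ligand gene Bmp4 was at -0.35 ± 0.09 (limma adjusted p = 0.078). The call of Fstl3 was lost without each wild-type embryo in turn (adjusted p = 0.13, 0.14 and 0.24).

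All 4 Id genes rose. They encode proteins that bind basic helix-loop-helix factors and keep them from DNA, and are the classic early targets of the BMP branch. Id1 read 7.39, 8.06 and 7.59 without treatment and 9.82, 10.10 and 10.19 at 1 h, Id2 8.63, 8.12 and 7.77 against 10.46, 10.33 and 9.50. In both genes each treated value lay above all untreated ones, by 2.36 ± 0.12 and 1.92 ± 0.11, or 5.12-fold and 3.80-fold (limma adjusted p = 5.8e-06 and 1.2e-05). Id3 read 10.21, 10.05 and 10.16 without treatment and 11.46, 11.45 and 11.30 at 1 h, and Id4 7.16, 7.10 and 7.23 against 8.32, 8.70 and 7.98. They rose by 1.26 ± 0.13 and 1.17 ± 0.15 (6.0e-04 and 0.0021), again without overlap, and Id4 did not pass without the embryo block. The 10 h values of Id1 were 8.55, 8.53 and 8.26, of Id2 9.02, 7.97 and 8.33, of Id3 10.07, 10.03 and 9.07 and of Id4 6.37, 6.29 and 6.14. These lay below the 1 h values in every gene, and for Id4 below the untreated ones too. Id2 had 2 further probe sets at 1.67 and 1.11 and Id4 another pair at 0.77 and 1.46.

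The 250 bases before the start of Id2, Id3 and Id4 are shown, from the RefSeq promoter table of assembly GRCm38.p6, 5′ to 3′ on the strand of the gene. The stretch of Id1 was not among those examined. Capitals mark short words that SMAD proteins are known to bind, CAGAC on either strand (GTCTG where it lies on the other) and the palindrome GGCGCC. The stretches lie at chr12:25096093-25096342 on the minus strand, chr4:136143572-136143821 on the plus strand and chr13:48260866-48261115 on the plus strand.
Id2: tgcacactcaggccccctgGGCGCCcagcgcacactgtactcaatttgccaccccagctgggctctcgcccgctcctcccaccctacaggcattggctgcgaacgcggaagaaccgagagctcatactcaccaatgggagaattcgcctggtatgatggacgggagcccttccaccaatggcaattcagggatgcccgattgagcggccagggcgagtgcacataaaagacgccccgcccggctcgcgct
Id3: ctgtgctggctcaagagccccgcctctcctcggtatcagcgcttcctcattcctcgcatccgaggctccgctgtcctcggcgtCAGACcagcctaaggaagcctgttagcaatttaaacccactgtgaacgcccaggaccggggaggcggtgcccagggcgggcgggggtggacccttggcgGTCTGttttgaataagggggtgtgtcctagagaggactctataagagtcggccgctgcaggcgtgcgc
Id4: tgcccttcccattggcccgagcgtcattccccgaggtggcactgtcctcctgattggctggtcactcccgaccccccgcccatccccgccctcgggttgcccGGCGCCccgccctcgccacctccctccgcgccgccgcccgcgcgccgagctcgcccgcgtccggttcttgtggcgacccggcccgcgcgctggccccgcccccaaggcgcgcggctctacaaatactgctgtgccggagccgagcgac
Id2 and Id4 hold 1 GGCGCC each and Id3 holds CAGAC 2 times, 1 on each strand. In the 300-base windows of tested genes CAGAC was found for 53.2% and GGCGCC for 23.5% of the genes, so such matches are common. A match is a description of these letters only, and no binding was measured.

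Early transcription factors of several families rose, each through some of its members, where 1.65% of all tested genes rose and 1.09% fell. Egr2, a zinc finger factor, read 6.91, 6.95 and 7.04 before treatment, 9.77, 9.36 and 9.38 at 1 h and 10.54, 10.91 and 10.11 at 10 h. The groups lay far apart and Egr2 rose by 2.54 ± 0.11, or 5.80-fold (limma adjusted p = 1.1e-06). Its relative Egr3 rose by 1.31 ± 0.16 and the nuclear receptor gene Nr4a1 by 1.67 ± 0.18 (0.0014 and 9.1e-04). Egr1, the most widely studied of the family, read 10.74, 10.36 and 10.61 without treatment and 11.40, 10.53 and 11.10 at 1 h. These values overlapped, the rise was 0.44 ± 0.09 (0.040), and it did not pass in 9 of the 16 alternatives, those without embryo 1 or 3 among them (adjusted p = 0.16 and 0.22). Egr3 did not pass without the embryo block. Of 9 Egr and Nr4a genes 4 rose and 1, Nr4a2, fell by 0.37 ± 0.08. Further Nr4a2 probe sets were at -0.13, -0.05, 0.22 and 0.40 and did not pass, and Egr3 had a further one at 0.08 ± 0.09, with 0.70 for the mean of its probe sets.

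Among AP-1, ATF and Maf factors 4 of 15 rose, where 1.65% of all tested genes did, and 0 fell. The rises were led by Junb, a JUN protein that forms AP-1 dimers. Junb read 6.46, 7.00 and 6.75 before treatment and 8.66, 8.47 and 8.42 at 1 h. It was higher in all 3 treated cultures by 1.78 ± 0.13, or 3.43-fold (limma adjusted p = 6.8e-05), and stood at 8.62, 8.78 and 8.42 at 10 h. Fos, the immediate early partner, rose only by 0.47 ± 0.09, Fosl1 by 0.57 ± 0.07 and the small Maf gene Mafk by 0.64 ± 0.08 (0.018, 0.0024 and 0.0018). Jun read 8.75, 9.02 and 9.13 against 9.04, 8.58 and 9.09, a change of -0.06 ± 0.12, with overlapping groups. Atf3 was at 0.42 ± 0.12 and Myc, a target that TGF-β represses in epithelial cells, at -0.05 ± 0.15; neither passed (0.10 and 0.90). Fos and Fosl1 did not pass without the embryo block, and Fos did not without wild-type embryo 1 or 2 (adjusted p = 0.10 and 0.15).

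Of 15 Krüppel-like factors 3 rose (20%) and 1 fell (6.67%), where 1.65% of all tested genes rose and 1.09% fell. Klf10, first described as a TGF-β-inducible early gene, read 7.66, 8.02 and 8.004 before treatment and 9.77, 10.09 and 10.09 at 1 h. Its rise of 2.09 ± 0.08, or 4.25-fold, was nearly the same in every embryo, with an SD of 0.02 (limma adjusted p = 1.1e-06), and at 10 h it read 9.06, 8.67 and 8.71. Klf9 rose by 0.55 ± 0.08 with an SD of 0.01 over the embryos and Klf13 by 0.44 ± 0.08 (0.0051 and 0.017). Klf5 fell by 0.70 ± 0.12 (0.015), from 7.89, 8.31 and 7.55 to 7.40, 7.14 and 7.10. Klf11, the closest relative of Klf10, was at 0.22 ± 0.10 and did not pass (0.27). Klf13 was not called without each wild-type embryo in turn (adjusted p = 0.094, 0.095 and 0.088), nor Klf5 without the embryo block.

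Other immediate early genes gave 10 rises among 23 tested (43.5%, against 1.65% of all tested genes) and 0 falls, with a median of 0.35. Ier3, which modulates cell survival and ERK signalling, read 9.25, 8.95 and 9.41 without treatment, 11.59, 11.49 and 11.63 at 1 h and 11.30, 11.79 and 10.95 at 10 h. It was higher in each embryo without overlap, by 2.36 ± 0.10, or 5.15-fold (limma adjusted p = 1.7e-06). Csrnp1, which encodes a nuclear protein, rose by 1.73 ± 0.07 (1.1e-06), while its dim second probe set was at -0.01 ± 0.18. The kinase genes Pim1 and Sgk1 rose by 1.20 ± 0.08 and 1.05 ± 0.14 and Ier5 by 1.31 ± 0.09 (2.8e-05, 0.0029 and 4.1e-05). A further probe set of Pim1 was at 0.22 ± 0.11, and the means of the probe sets were 0.71 for Pim1 and 0.86 for Csrnp1.

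Snai1 stood apart from the other regulators of the mesenchymal state. It encodes a repressor of E-cadherin and read 6.34, 6.76 and 6.64 before treatment, 8.62, 8.87 and 8.89 at 1 h and 7.76, 8.24 and 7.71 at 10 h. It rose by 2.22 ± 0.09, or 4.65-fold, in every embryo without overlap (limma adjusted p = 1.1e-06). Its relative Snai2 read 10.78, 10.63 and 10.97 against 10.37, 10.48 and 10.51, lower in all 3 embryos with groups that did not overlap, a change of -0.34 ± 0.08 that did not pass (0.063). Zeb2 fell by 0.58 ± 0.11 (0.026) from 8.88, 7.71 and 8.13 to 8.39, 7.07 and 7.53. The Zeb2 groups overlapped, 3 further probe sets were at 0.39 ± 0.12, -0.22 ± 0.09 and -0.57 ± 0.14, and the call was lost without each wild-type embryo in turn (adjusted p = 0.068, 0.18 and 0.15). Of 9 Snail, Zeb and Twist genes 1 rose and 1 fell, where 1.65% of all tested genes rose and 1.09% fell.

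Some repressors of the Hes, Hey and Bhlhe40 type rose as well. They were 3 of 16 genes of this list with the Notch pathway, against 1.65% of all tested genes. Bhlhe40, which also acts in the circadian clock, read 7.57, 8.997 and 7.95 without treatment, 10.04, 10.54 and 9.99 at 1 h and 10.14, 10.26 and 10.30 at 10 h. Embryo 2 started higher than the others, all treated values lay above all untreated ones, and the rise was 2.02 ± 0.14, or 4.05-fold (limma adjusted p = 4.4e-05). Hes1 rose by 1.45 ± 0.14 and Hey1 by 0.74 ± 0.10 (4.0e-04 and 0.0030). Among 16 clock genes Per2 rose by 1.03 ± 0.12 (0.0011), with 2 dim further probe sets at -0.12 and 0.24 and a mean over its probe sets of 0.38. Other factors with rises above 2-fold were the forkhead genes Foxc2 at 1.29 ± 0.08 and Foxs1 at 1.10 ± 0.08 (1.5e-05 and 4.8e-05). Foxs1 read 5.89, 5.89 and 6.04, then 6.98, 6.90 and 7.25 at 1 h and 9.16, 9.51 and 8.50 at 10 h.

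Some secreted factors of several families were higher after 1 h, where 1.65% of all tested genes were. Lif, a cytokine of the interleukin-6 family, read 5.66, 5.99 and 6.21 before treatment, 8.26, 7.91 and 8.43 at 1 h and 8.39, 8.99 and 8.46 at 10 h. The 1 h and untreated groups lay well apart, by 2.25 ± 0.12, or 4.75-fold (limma adjusted p = 6.5e-06), while a further probe set was at 0.11 ± 0.07 and the mean of both at 1.18. Il6 read 3.88, 4.11 and 3.76 without treatment and 5.03, 6.17 and 4.62 at 1 h, a rise of 1.36 ± 0.20 (0.0052). The response of Il6 was largest in embryo 2, its level at 10 h was 7.65, 6.87 and 7.32, and the call was lost without the embryo block. Il11 rose by 0.54 ± 0.08 and the signalling inhibitor gene Socs2 by 0.79 ± 0.14 (0.0050 and 0.014), so that 4 of 15 genes of this family rose and 0 fell. Neither passed without the embryo block, nor Il11 without embryo 2 or 3 (adjusted p = 0.054 and 0.057), nor Socs2 without embryo 1 or 2 (0.081 and 0.089). Il11 read 6.73, 6.86 and 7.19 at 1 h and 9.92, 11.09 and 9.83 at 10 h.

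Of 13 stretches examined in this way 6 held one of the words searched, GGGCGG left out, and 7, those of Rasl11b, Snai1, Smad6, Junb, Ier3, Spsb1 and Txnip, held none; of the 6, only Ppp1r3c, with a CACGTG, is not printed here, so the stretches shown were chosen for a match. The 250 bases before the start of Lif are shown because they hold a CAGAC and, further upstream, a TGANTCA, the word bound by AP-1 dimers such as those of JUNB (chr11:4257318-4257567, plus strand, GRCm38.p6, matches in capitals).
Lif: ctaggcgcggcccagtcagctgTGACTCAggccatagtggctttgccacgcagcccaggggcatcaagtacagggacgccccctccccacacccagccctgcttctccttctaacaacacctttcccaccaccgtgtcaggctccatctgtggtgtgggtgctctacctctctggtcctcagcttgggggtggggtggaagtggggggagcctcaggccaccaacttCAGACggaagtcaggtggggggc

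Hbegf, a ligand of the epidermal growth factor (EGF) receptor, read 9.21, 9.35 and 9.13 before treatment and 11.42, 11.30 and 11.26 at 1 h. It rose by 2.09 ± 0.08, or 4.27-fold, with little spread between embryos (limma adjusted p = 1.1e-06), and stood higher still at 10 h, at 12.82, 13.16 and 12.54. Ereg, another ligand of this receptor, rose by 0.92 ± 0.10 (0.0010), and with Hbegf made 2 of 8 EGF receptor ligands and receptors. Of all tested genes 1.65% rose. Wnt9a, a Wnt ligand of joint-forming tissue, read 7.90, 7.61 and 7.95 against 9.32, 9.45 and 9.49. It was the single member to rise of 35 Wnt ligands, receptors and modulators, by 1.60 ± 0.09, or 3.03-fold (1.2e-05), with a further probe set at 0.36 ± 0.11 (mean of both 0.98). Fgf18 rose by 1.42 ± 0.09 and Fgf21 by 1.00 ± 0.09 among 11 FGF genes (2.9e-05 and 1.8e-04), and Fgf21 read 6.43, 6.62 and 6.63 at 1 h and 9.54, 9.89 and 9.38 at 10 h. Vegfa, which acts on endothelial cells, rose by 0.81 ± 0.10 and Pdgfb, a mitogen for mesenchymal cells, by 0.79 ± 0.07 (0.0016 and 2.1e-04). Of the other PDGF genes none of those named here passed, Pdgfa at 0.26 ± 0.08, Pdgfra at -0.15 ± 0.10 and Pdgfrb at 0.28 ± 0.08 (0.15, 0.44 and 0.13). Ereg and Pdgfb did not pass without the embryo block.

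Of 15 CDK inhibitors, D cyclins and Gadd45 genes 2 rose (13.3%), against 1.65% of all tested genes. Gadd45b, a small protein that activates a MAP kinase cascade, read 8.78, 8.83 and 9.29 before treatment, 10.68, 10.83 and 11.14 at 1 h and 10.13, 10.84 and 10.00 at 10 h. It rose by 1.92 ± 0.09, or 3.78-fold, in every embryo without overlap (limma adjusted p = 2.2e-06), and Gadd45g by 1.55 ± 0.08 (6.5e-06). No other gene of the 15 CDK inhibitors, D cyclins and Gadd45 genes passed. Cdkn1a, a mediator of growth arrest, read 11.80, 11.72 and 11.80 against 11.82, 11.74 and 11.92, a change of 0.05 ± 0.07, and Cdkn2b was at -0.06 ± 0.08. Of 24 S-phase and mitosis genes 0 passed, and the ribonucleotide reductase gene Rrm2 came nearest at 0.34 ± 0.09 (0.075). Over all tested genes 2.74% passed, so a list of this size can hold 0 calls at that share.

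The stretch before the start of Gadd45b is shown because it holds the E-box CACGTG and, close to the start, a TATAAA (chr10:80929841-80930090, plus strand, GRCm38.p6, matches in capitals).
Gadd45b: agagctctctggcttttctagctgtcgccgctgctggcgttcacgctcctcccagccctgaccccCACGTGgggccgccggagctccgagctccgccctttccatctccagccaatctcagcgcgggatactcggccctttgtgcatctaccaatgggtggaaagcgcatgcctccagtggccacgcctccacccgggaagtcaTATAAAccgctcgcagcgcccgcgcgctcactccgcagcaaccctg

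A minority of the MAP kinase feedback genes and of the regulators of RNA decay rose, where 1.65% of all tested genes did. Of 18 MAP kinase phosphatase, Sprouty and related genes 5 rose and 0 fell, with a median of 0.06, among them Dusp4 by 0.77 ± 0.13, Dusp14 by 0.60 ± 0.07, Dusp5 by 0.49 ± 0.08 and the EGF receptor inhibitor Errfi1 by 0.50 ± 0.09 (limma adjusted p = 0.013, 0.0018, 0.0095 and 0.015). The fifth was Dusp2. Dusp4, Dusp14 and Dusp5 did not pass without the embryo block. Dusp4 and Dusp5 were lost without embryo 1 (0.067 and 0.068) or 3 (0.071 and 0.09), and Errfi1 without each embryo in turn (0.088, 0.061 and 0.054). Of 13 regulators of RNA decay, with a median of 0.07, 3 rose, Zfp36, which binds AU-rich elements, by 0.64 ± 0.11, Btg1 by 0.36 ± 0.07 and Tob2 by 0.38 ± 0.09 (0.013, 0.025 and 0.046). None of the 3 passed without the embryo block, nor Zfp36 without embryo 1 or 3 (0.075 and 0.11), nor Btg1 without each embryo in turn (0.084, 0.17 and 0.089). The prostaglandin synthase gene Ptgs2 read 9.46, 9.64 and 9.39 without treatment, 10.93, 10.78 and 10.71 at 1 h and 12.34, 12.06 and 11.74 at 10 h. Its groups did not overlap and it was the 1 gene of 11 in prostaglandin and hyaluronan synthesis that rose, by 1.31 ± 0.13 (4.9e-04).

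Of 13 CCN and matricellular genes 3 rose (23.1%, against 1.65% of all tested genes). The list had a median of -0.03 with 8 below 0, and no fibrillar matrix gene passed. Ccn1 and Ccn2, secreted proteins that link matrix and growth factors, rose by 1.06 ± 0.08 and 1.05 ± 0.09, or 2.08-fold and 2.07-fold (limma adjusted p = 9.1e-05 and 1.7e-04). Ccn2 read 12.68, 12.23 and 12.30 before treatment, 13.59, 13.30 and 13.46 at 1 h and 13.92, 14.13 and 13.76 at 10 h, and no treated value reached down to the untreated ones. Ccn4 rose by 0.38 ± 0.07 (0.018), but was lost without each wild-type embryo in turn (0.070, 0.10 and 0.14). Thbs1 was at -0.22 ± 0.11. Of 22 fibrillar matrix genes 0 passed, with Col1a1 at -0.01 ± 0.08, Fn1 at 0.02 ± 0.06 and the nearest, Col12a1, at -0.47 ± 0.11 (0.97, 0.89 and 0.064). Of 20 contractile and cytoskeletal genes 0 passed, with Acta2 at 0.03 ± 0.06, Tagln at 0.02 ± 0.07 and Myh9 at 0.28 ± 0.10 (0.86, 0.92 and 0.18). Over all tested genes 2.74% passed, so 0 calls in lists of this size is near that share. Probe sets of Acta2, Col1a1 and Fn1 read between 13.73 and 14.04 on the 6 arrays, near the highest value of any array, 14.47.

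Regulators of tendon, cartilage and bone included 5 rises among 15 tested genes (33.3%, against 1.65% of all tested genes) and 0 falls. Scx, the tendon factor scleraxis, read 5.47, 5.87 and 6.10 before treatment, 6.41, 7.01 and 6.95 at 1 h and 6.42, 7.06 and 7.04 at 10 h. It was higher in each embryo without overlap, by 0.98 ± 0.08, or 1.97-fold (limma adjusted p = 1.8e-04). The chondrogenic factor Sox9 rose by 0.71 ± 0.09, Msx2 by 0.57 ± 0.09 and Runx3 by 0.49 ± 0.09 (0.0017, 0.0078 and 0.017), and Runx1 was the other. The means of the probe sets were smaller, 0.37 for Sox9, 0.31 for Msx2 and 0.32 for Runx3, and passed too. Scx alone of these 4 passed in every alternative; Msx2 and Runx3 were lost without embryo 1 (0.056 and 0.095) or 3 (0.066 and 0.15). Tnfrsf11b, whose product osteoprotegerin restrains bone resorption, was not on the list and read 6.88, 6.39 and 6.90 against 7.97, 8.12 and 7.89. It rose by 1.27 ± 0.17 (0.0025) without overlap.

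The remaining rises of at least 2-fold came from genes of varied function. Nuak2, a kinase related to AMPK, rose by 1.43 ± 0.15, Cdk5r1, the activator of CDK5, by 1.38 ± 0.12 and Rgcc, a regulator of the cell cycle, by 1.34 ± 0.13 (limma adjusted p = 7.4e-04, 1.6e-04 and 5.5e-04). Further Cdk5r1 probe sets were at 0.26 ± 0.08 and 0.98 ± 0.11, and the mean of its probe sets at 0.70. Snord89 rose by 1.12 ± 0.12, the lipid transporter gene Mfsd2a by 1.11 ± 0.16 and the RNA-binding protein gene Mex3b by 1.07 ± 0.14 (9.2e-04, 0.0052 and 0.0024). Cxcr4, a chemokine receptor that leukocytes also carry, read 6.42, 4.56 and 3.67 without treatment and 7.66, 5.56 and 4.84 at 1 h. Its rise of 1.14 ± 0.10 (1.6e-04) was alike in the 3 embryos, with an SD of 0.13, although its level was highest in embryo 1, where the macrophage markers were also highest, with a list mean of 10.11 against 8.64 and 8.55; their part in the result was not tested. Without the embryo block Cxcr4, Mfsd2a and Mex3b did not pass, nor did Mfsd2a without embryo 3 (adjusted p = 0.053). Tent5c, a cytoplasmic poly(A) polymerase, read 3.95, 4.14 and 3.84 against 6.49, 5.20 and 4.28. The change was 2.53, 1.06 and 0.43 in embryos 1, 2 and 3, which gave 1.34 ± 0.29 (0.043), and it did not pass in 11 of the 15 alternatives in which it was tested, that without embryo 2 among them (adjusted p = 0.16).

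**Figure D2:**
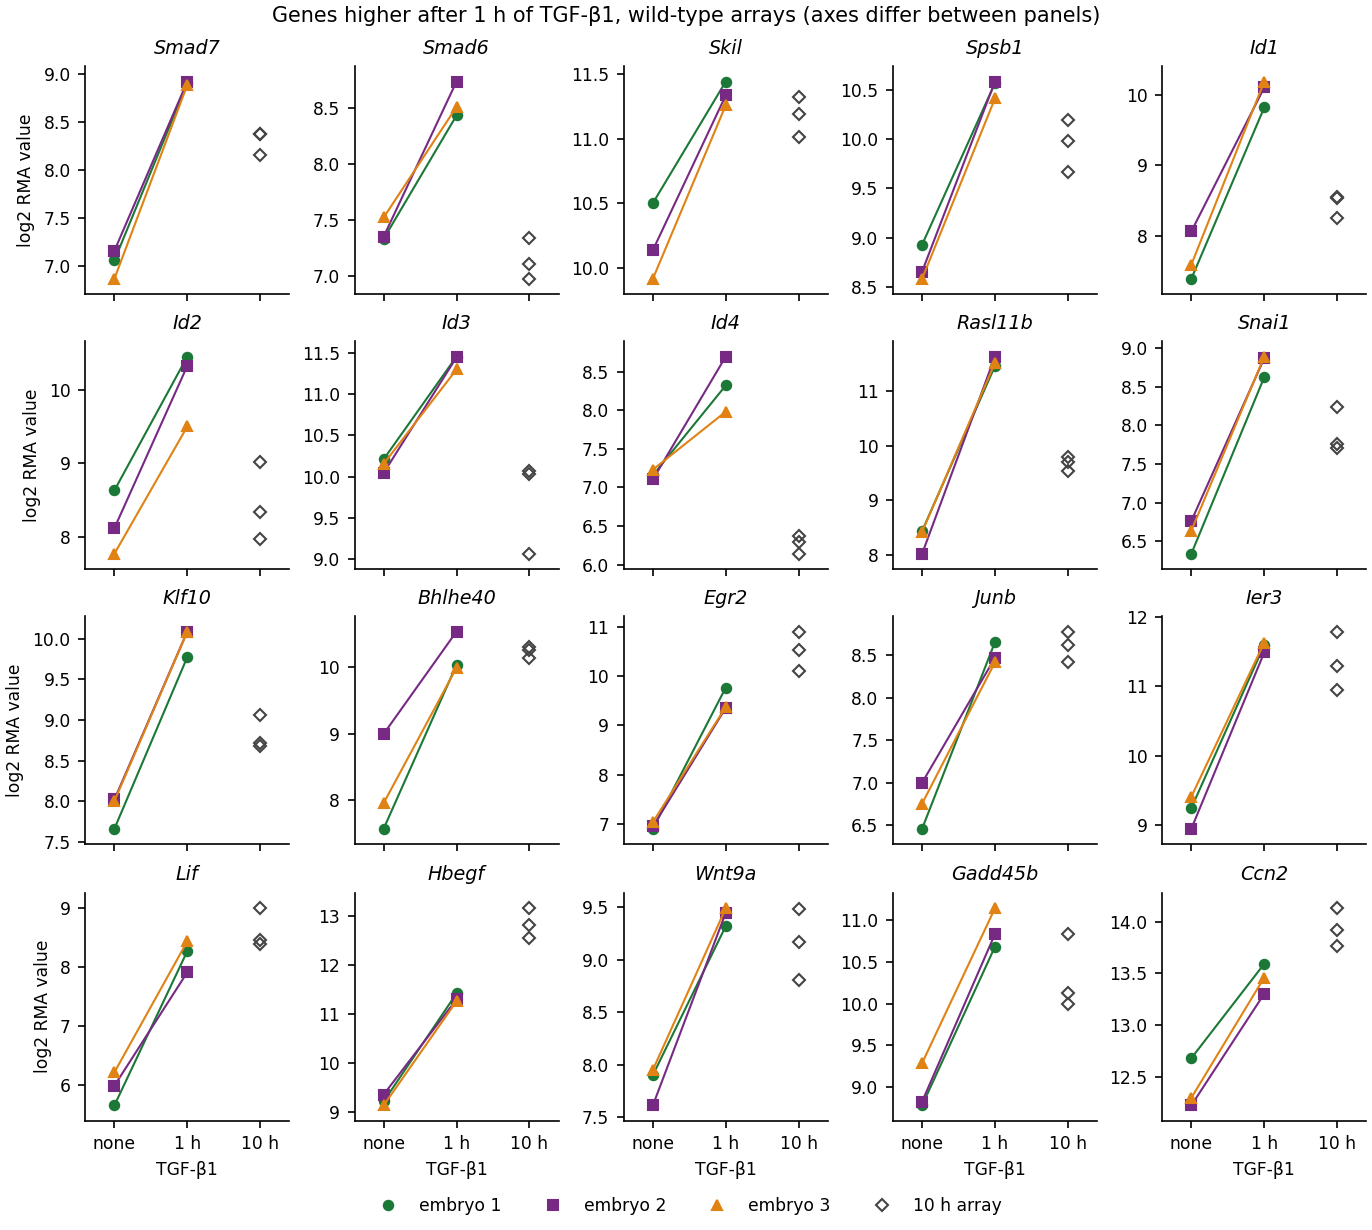
Levels (log2) of 20 genes that rose after 1 h are plotted for wild-type cells without TGF-β1, at 1 h and at 10 h, with a colour and symbol per embryo, lines joining the untreated and 1 h arrays of an embryo, open diamonds for the 10 h arrays without their numbers, and an axis of its own in each panel. In every panel the 3 lines run upward; at 10 h Id2, Id3, Id4 and Smad6 lie back near or below their untreated levels, while Egr2, Hbegf and Ccn2 lie above their 1 h levels.

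The largest falls were those of Ccl3 and Ppp1r3c. Ccl3, a chemokine of macrophages, read 7.84, 6.92 and 5.85 before treatment, 5.52, 4.70 and 4.31 at 1 h and 4.69, 4.04 and 4.52 at 10 h. It was lower in every embryo without overlap, with a change of -2.03 ± 0.28, 4.08-fold lower (limma adjusted p = 0.0038), but did not pass without the embryo block or without embryo 2 (adjusted p = 0.054). Of the 18 macrophage and leukocyte markers 0 passed and 14 were below 0, and the mean of the list ran from 8.55 to 10.11 without treatment and from 8.47 to 9.96 at 1 h, with Csf1r at -0.08 ± 0.06 and Lyz2 at -0.11 ± 0.07, a pair chosen after its values were seen; their part in the result was not tested. In cultures of mixed cells, fewer cells of a type and less RNA per cell cannot be told apart. Of 15 chemokines tested Ccl3 alone fell and 0 rose, where 1.09% of all tested genes fell.

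Ppp1r3c, which brings protein phosphatase 1 to glycogen, read 6.88, 6.94 and 7.09 without treatment and 5.55, 4.80 and 5.30 at 1 h. All treated values lay far below the untreated ones, with a change of -1.75 ± 0.13, 3.37-fold lower (limma adjusted p = 6.2e-05), and lower still at 10 h, at 4.28, 4.38 and 4.71. A second, dimmer probe set was at -0.82 ± 0.13 (0.014 over all probe sets). Ppp1r3d, another glycogen-targeting subunit, moved the other way, by 0.79 ± 0.09 (0.0015). No other of the 12 glycogen genes passed, and of all tested genes 2.74% did. Txnip, an arrestin that limits glucose uptake, read 10.65, 9.64 and 10.49 against 9.38, 8.87 and 9.43. It fell by 1.03 ± 0.12 (0.0013) without overlap, and its second probe set was at -1.43 ± 0.13. It did not pass without the embryo block.

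Several transcriptional regulators fell, where 1.09% of all tested genes did. Zfp40 fell by 1.11 ± 0.13, from 5.85, 5.63 and 5.62 to 4.69, 4.27 and 4.82, and Osr1, a zinc finger factor of the embryonic mesoderm, by 1.07 ± 0.14, from 7.65, 7.68 and 8.77 to 7.05, 6.36 and 7.46 (limma adjusted p = 0.0011 and 0.0023). Neither gene's groups overlapped, and Osr1 did not pass without the embryo block. Cited2, a coactivator that opposes hypoxia signalling, read 10.01, 9.94 and 9.81 without treatment and 9.37, 9.09 and 8.98 at 1 h. It fell by 0.77 ± 0.09 (0.0012) and passed in every alternative. Ddit3, the stress factor CHOP, fell by 0.78 ± 0.07 and Chac1, which degrades glutathione, by 0.60 ± 0.10 (1.6e-04 and 0.0094). They made 2 of 20 genes of the ATF4 and amino acid stress list, in which 0 rose, and Ddit3 read 9.83, 10.20 and 10.60 at 10 h, near its untreated 10.05, 10.33 and 10.01. A second Ddit3 probe set fell further at 1 h, at -1.62 ± 0.13. Cebpd fell by 0.62 ± 0.09 and Nfkbiz, an atypical IκB protein, by 0.82 ± 0.15 (0.0050 and 0.018). Ddit3, Chac1, Cebpd and Nfkbiz did not pass without the embryo block; Chac1 was lost without embryo 1 or 3 (0.064 and 0.09), Cebpd without embryo 2 (0.057) and Nfkbiz without embryo 1 or 2 (0.098 and 0.14).

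Secreted and membrane proteins among the falls included Adm, the vasodilator adrenomedullin, which read 8.68, 8.50 and 8.92 against 7.90, 7.71 and 8.18 at 1 h. Its fall of 0.77 ± 0.07 was nearly equal in the 3 embryos, with an SD of 0.02 (limma adjusted p = 1.7e-04), and it stood at 5.83, 6.36 and 6.09 at 10 h. A second Adm probe set was at -1.25 ± 0.10, so the size of the fall differed between probe sets. The protease gene Adamts1 fell by 0.86 ± 0.10 as the 1 gene called of 19 matrix proteases and inhibitors, and read 7.49, 7.79 and 8.20 at 10 h (0.0015). Flrt3, an adhesion protein, fell by 0.82 ± 0.13 (0.0096). Ch25h, which makes 25-hydroxycholesterol, read 7.15, 7.88 and 6.83 against 5.65, 6.95 and 6.22. These groups overlapped, the fall was 1.01 ± 0.18 (0.014), and it did not pass without the embryo block or without embryo 1 or 2 (0.069 and 0.093). Adm, Adamts1 and Flrt3 did not pass without the block either, nor Flrt3 without embryo 2 or 3 (0.094 and 0.089). Of 20 sterol synthesis genes 0 passed, with Insig1 at 0.26 ± 0.08, and of all tested genes 2.74% did.

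The poly(A) polymerase gene Tent5a read 8.41, 8.42 and 8.58 without treatment and 7.59, 7.53 and 7.70 at 1 h. Its fall of 0.86 ± 0.07 passed in every alternative (limma adjusted p = 7.7e-05), and its paralog Tent5c had the rise described above. Gdap10 fell by 0.96 ± 0.14 and Taf15, an RNA-binding protein gene, by 0.98 ± 0.11, with levels that overlapped between the groups and were lowest in embryo 2 under both conditions (0.0050 and 0.0013). Neither passed without the embryo block.

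**Figure D3:**
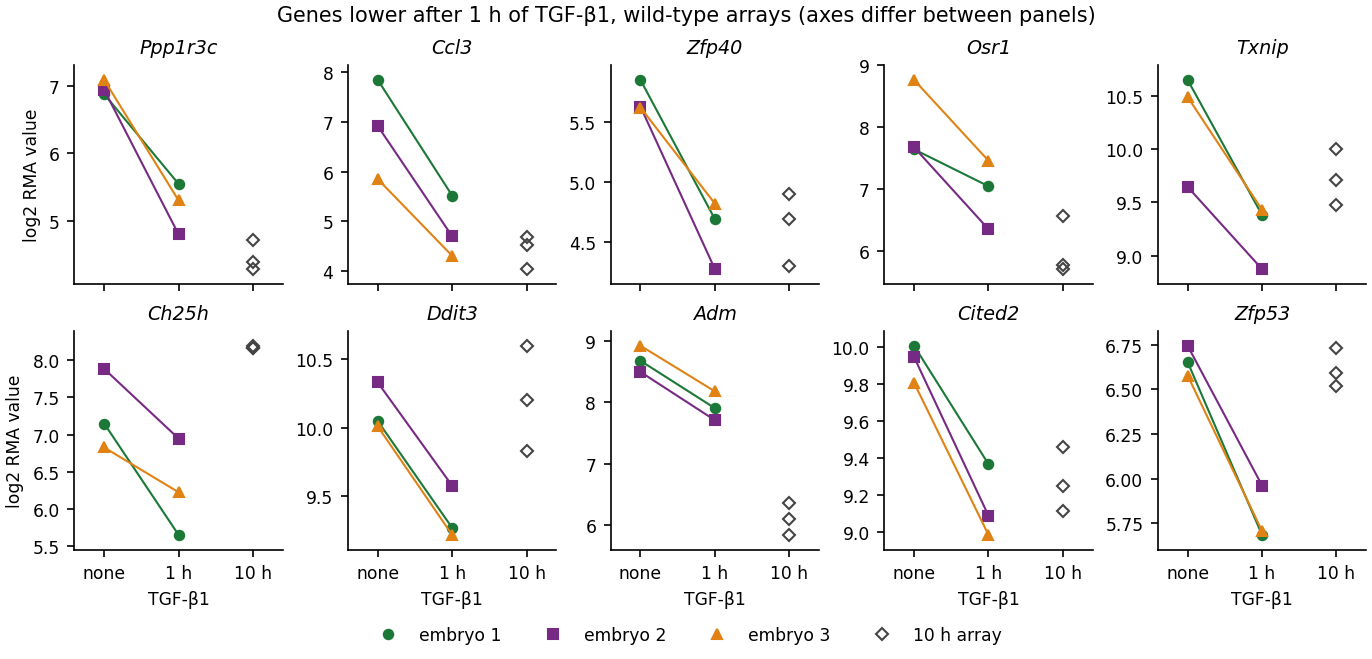
Levels (log2) of 10 genes that fell after 1 h are plotted as for the rises, without TGF-β1, at 1 h and at 10 h, with an axis of its own in each panel and lines joining the untreated and 1 h arrays of an embryo. Every line runs downward; Adm and Ppp1r3c lie lower still at 10 h, while Ddit3 and Zfp53 lie near their untreated levels there and Ch25h above its own.

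Some of the falls rested on a pair of embryos. Otub1, a deubiquitinating enzyme, read 7.21, 8.09 and 7.95 without treatment and 6.85, 6.45 and 6.90 at 1 h, with changes of -0.35, -1.64 and -1.05 in embryos 1, 2 and 3. Pfn1, the actin-binding profilin, read 10.29, 11.48 and 11.05 against 10.08, 9.85 and 10.13, a similar order of embryos. The changes were -1.01 ± 0.19 and -0.92 ± 0.20 (limma adjusted p = 0.020 and 0.046), and neither passed without embryo 2 (0.12 and 0.24) or 3 (0.12 and 0.20). In the labelled knock-out cells Pfn1 read 11.13, 11.25 and 9.73 without treatment and 10.91, 11.12 and 9.95 at 1 h, high in knock-out embryos 1 and 2 and low in knock-out embryo 3 under both conditions. Otub1 followed the same order there, at 8.19, 8.17 and 6.41 against 7.89, 8.11 and 6.61, and its second probe set in wild type was at -0.05 ± 0.12. What set these levels was not tested.

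The median change of the 226 rises was 0.60, 0.61 and 0.60 in wild-type embryos 1, 2 and 3, and that of the 149 falls -0.46, -0.51 and -0.48, but these genes were chosen by a paired test that favours like changes. Over all tested genes 44, 62 and 36 were at least 2-fold higher and 10, 28 and 12 at least 2-fold lower in the 3 embryos. Embryo 2 thus had the most changes of this size, and the SD of the change over all genes was also largest there, at 0.27 against 0.20 and 0.23. The genes past the threshold with the smallest spread between embryos were Zfp217 at -0.55 ± 0.07, Klf9 and Rhot2, a mitochondrial GTPase, at -0.30 ± 0.06, with SDs of 0.01, 0.01 and 0.02. Those with the largest were Tent5c, Pfn1 and Otub1, with SDs of 1.08, 0.71 and 0.64.

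**Figure D4:**
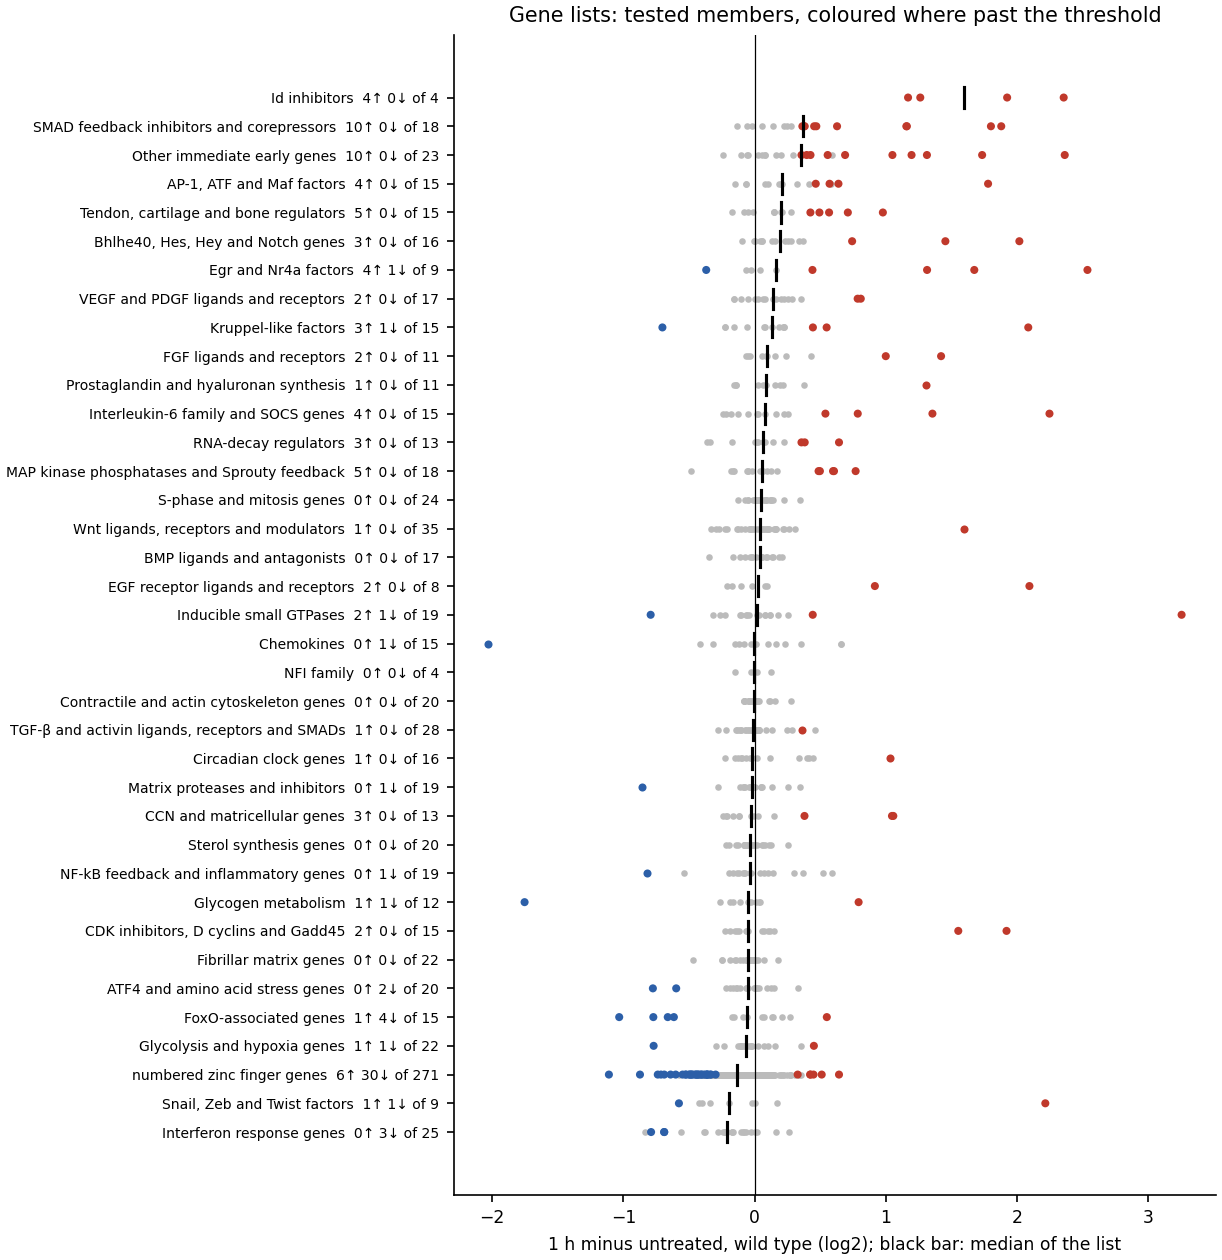
Each row is a gene list with its count of higher, lower and tested members, each dot the change of a member after 1 h in wild type (log2), coloured red or blue where it passed, and the black bar the median of the list. The 4 Id genes all lie above 1, SMAD inhibitors and other immediate early genes have medians of 0.37 and 0.35, and most other lists have medians near 0 with a few outlying members.

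Some interferon response and zinc finger genes fell. Of 25 interferon response genes 3 fell and 0 rose, with a median of -0.21 and 21 below 0, where 1.09% of all tested genes fell, their median was -0.01 and 51.6% were below 0. Stat2, a subunit of the interferon-activated complex, fell by 0.69 ± 0.07, from 5.98, 6.34 and 6.77 to 5.39, 5.73 and 5.91, and Usp18 and Ifit3 by 0.69 ± 0.13 and 0.79 ± 0.14 (limma adjusted p = 8.3e-04, 0.019 and 0.014). Usp18 and Ifit3 fell most in embryos 1 and 3, by 0.95 and 0.91 and by 1.17 and 0.88, and least in embryo 2, by 0.21 and 0.31. The mean of the list was 7.00, 6.24 and 6.80 without treatment and 6.61, 6.22 and 6.47 at 1 h, so embryo 2 began lowest and moved least. None of the 3 passed without the embryo block, and Usp18 and Ifit3 were lost without embryo 1 (0.10 and 0.072) or 3 (0.16 and 0.11). The 271 tested genes named Zfp with a number, a list made after the values were seen, included 30 falls (11.1%) and 6 rises, with a median of -0.13 and 193 below 0. Among them Zfp53 fell by 0.87 ± 0.07 (1.7e-04), from 6.65, 6.74 and 6.58 to 5.68, 5.96 and 5.71, and read 6.52, 6.59 and 6.73 at 10 h. The number of falls on this list was 4 without the embryo block, 16, 9 and 11 without wild-type embryos 1, 2 and 3, and 20 with each array centred on its median.

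Genes linked to FoxO factors and to metabolism gave scattered calls, where 1.65% of all tested genes rose and 1.09% fell. Of 15 FoxO-associated genes Txnip, Cited2, Cebpd and Sesn3 fell and Foxo1 rose, the latter by 0.55 ± 0.09 (limma adjusted p = 0.011). Sesn3, a stress-induced inhibitor of growth signalling, fell by 0.66 ± 0.12 (0.020). Of 22 glycolysis and hypoxia genes Hk2, the inducible hexokinase, rose by 0.45 ± 0.07 (0.0093) and Adm fell. Foxo1, Sesn3 and Hk2 did not pass without the embryo block; Foxo1 was lost without embryo 2 (0.066), Sesn3 without embryo 2 or 3 (0.18 and 0.10) and Hk2 without embryo 1 or 3 (0.067 and 0.09). Of 19 NF-κB feedback and inflammatory genes Nfkbiz fell and 0 rose. The 4 NFI genes did not pass, with changes of 0.13 ± 0.09 for Nfic and -0.15 ± 0.07 for Nfia (0.48 and 0.27), and of -0.03 ± 0.08 for Nfib and 0.02 ± 0.08 for Nfix (0.89 and 0.92).

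Cells labelled as Nfic knock-outs gave a separate set of 6 arrays under the same treatment. Their Nfic level was 10.43, 9.89 and 10.72 without treatment against 10.51, 10.36 and 10.49 in wild type, with overlapping groups and no test made. Whether the probe set lies in the deleted part is not known here, so it does not check the labels, and the genotype is given as labelled. In them 214 genes passed (1.56%), 161 higher (1.18%) and 53 lower (0.387%), in a fit that shares its estimate of the spread with wild type. Of the 226 wild-type rises 134 also passed as higher there, of the 149 falls 37 passed as lower, and 0 passed in the opposite direction. The shared 171 genes are 45.6% of the wild-type and 79.9% of the knock-out calls. Of the large changes 40 of 44 rises and 6 of 7 falls were shared. The median knock-out change was 0.50 over the wild-type rises and -0.26 over the falls. It was above 0 for 217 of the rises, against 45.7% of all genes, and below 0 for 134 of the falls.

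The interaction of genotype and treatment passed for 0 of 13679 genes in limma, with 1021 at an unadjusted p under 0.05, and for 0 in each of the 15 alternative fits that hold both genotypes. The largest rises were close in both, with differences (knock-out minus wild type) of -0.04 ± 0.18 for Rasl11b, 0.16 ± 0.18 for Id1, 0.01 ± 0.12 for Snai1, -0.17 ± 0.13 for Smad7 and -0.02 ± 0.12 for Hbegf. Some values stood further apart without passing (limma adjusted p = 0.617 for each). Ier3 differed by -0.58 ± 0.15, with rises of 2.34, 2.53 and 2.22 in wild-type and 1.47, 1.99 and 1.89 in knock-out embryos. Tnfrsf11b differed by -0.96 ± 0.24, with rises of 1.09, 1.73 and 0.99 against changes of 0.17, -0.04 and 0.80. Usp18 and Ifit3 differed by 0.74 ± 0.18 and 0.67 ± 0.20, and in knock-out cells their changes lay between -0.25 and 0.16. The gap of Tent5c was -1.22 ± 0.41, with the largest change, 2.53, in wild-type embryo 1.

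**Figure D5:**
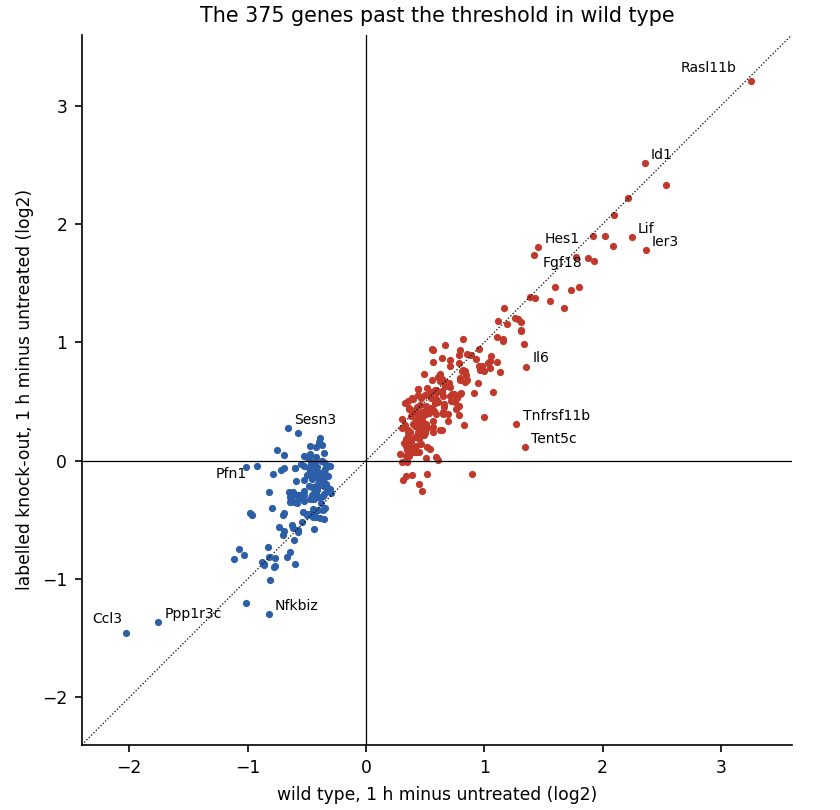
Each of the 375 genes past the threshold in wild type is placed by its change after 1 h in wild type (horizontal, log2) and in labelled knock-out cells (vertical, log2), red for rises and blue for falls, with a dotted line of equal change. The large rises follow the line, while Tnfrsf11b and Tent5c lie well below it and Sesn3 (0.28) and Pfn1 (-0.04) lie above or near 0 in knock-out cells.

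Promoter windows were available in the RefSeq table for 165 of the 226 genes that rose, 120 of the 149 that fell and 10989 of all tested genes. A window runs from 250 bases before to 50 bases after a start, 300 bases in all, a gene may have several (1.28 on average over tested genes, 1.35 over the rises and 1.13 over the falls), and a gene was counted when any of its windows held the word. Words were searched on both strands, except TATAAA on the strand of the gene, and may overlap each other. The SMAD words CAGAC and GGCGCC were found for 61.2% and 29.1% of the rises, 56.7% and 11.7% of the falls, and 53.2% and 23.5% of tested genes. The GC-rich word GGGCGG, bound by SP and KLF factors, was found for 78.8%, 59.2% and 65.6%, and the E-box CACGTG for 17.0%, 7.5% and 11.3%. TATAAA was found for 10.9% of the rises, 8.33% of the falls and 5.98% of tested genes. The AP-1 word TGANTCA stood at 7.88%, 4.17% and 6.62%, the CArG box of the serum response factor at 3.64%, 1.67% and 1.58%, and the cyclic AMP word TGACGTCA at 1.82%, 3.33% and 3.27% of rises, falls and tested genes. Over all 27025 genes of the table CAGAC was found for 53.2%, GGCGCC for 13.4%, GGGCGG for 38.2%, CACGTG for 8.09%, TATAAA for 9.77%, TGANTCA for 8.97%, the CArG box for 1.81% and TGACGTCA for 2.03%. Of the 28 rises of at least 2-fold that have a window, with 1.46 windows per gene on average, 6 (21.4%) held TATAAA. In the same 28 genes CAGAC was found for 60.7%, GGCGCC for 25.0%, GGGCGG for 78.6% and CACGTG for 25.0%. TGANTCA was found there for 10.7%, the CArG box for 3.57% and TGACGTCA for 0%. These shares were not tested, and rises had more windows per gene than falls.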

How the data were processed

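Gene expression was measured in 18 mouse embryonic fibroblast cultures on 1-colour Affymetrix arrays, in 6 groups of 3 embryos. The deposited values are log2 expression values per probe set, made by RMA (background correction, quantile normalization and summary of probes) per the submitters' processing notes. A version of RMA was not given in the sources used here. Of 45101 probe sets 34958 carried 1 gene symbol, 932 several and 9211 none in the platform annotation. Each of 18194 genes was represented by its brightest probe set over the 18 arrays, and 13679 genes lay above the 40th percentile of an array on at least 3 arrays and were tested; the other 4515 were not.

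The 12 untreated and 1 h arrays of both genotypes were fitted in limma 3.58.1 (R 4.3.3) with embryo as a fixed block, and p-values were adjusted by Benjamini-Hochberg over all tested genes at a threshold of 0.05. Errors printed after ± are limma's SE. The embryo numbers in the titles give the pairing: after removal of group means, untreated and 1 h arrays of the same number correlated at 0.763, 0.604 and 0.642 in wild type and at 0.592, 0.684 and 0.656 in labelled knock-out cells. Precision is limited by the number of arrays: the median 95% confidence interval reached 0.18 to either side of a change. The fit was also run on simulated data with known changes, drawn with independent noise from the same model. That run checks the computation and cannot test the pairing, effects of single arrays or the calls in the real data.

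Members and gene lists were chosen with earlier results of these data known, and the list of numbered zinc finger genes after the values were seen. Genes named in the text were every gene past the threshold at 2-fold, the 15 largest falls, up to 4 members past the threshold of each list or else its nearest member, a fixed set of pathway genes, the 3 genes past the threshold with the largest and the 3 with the smallest spread, and the 5 with the smallest interaction p. Of the fixed set Fosb did not reach the filter, and 1 gene is not reported here, nor is 1 gene list. Genes named only as the remaining members of a count fall outside the rule. Alternatives were fits without the block, with all 18 arrays or with the 6 wild-type arrays, other filters (none, or the 60th percentile), the mean of a gene's probe sets, quantile normalization, median centring, trended robust moderation, and leaving out each embryo.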

Additional observations from a re-analysis of the deposited data

Results flagged for a closer look

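In 5 of the 149 named genes every wild-type embryo moved one way after 1 h and every labelled knock-out embryo the other. How many of all tested genes did so was not counted. Since 42.2% of them changed the same way in all 3 wild-type embryos, the count of 5 is not shown to be unusual. The interaction itself was tested for each and did not pass (limma adjusted p = 0.554 for the first 4 and 0.617 for Nfia), and the first 4 were named for their small interaction p, so the difference is a description. Epor, the erythropoietin receptor, changed by 0.59, 0.43 and 0.52 in wild type and by -0.08, -0.15 and -0.11 in knock-out embryos, a difference (knock-out minus wild type) of -0.63. Bex1 changed by 0.41, 0.61 and 0.32 against -0.09, -0.16 and -0.34, a difference of -0.64. Sesn3 changed by -0.47, -0.88 and -0.64 against 0.09, 0.06 and 0.69, a difference of 0.94. Csf2rb2, a cytokine receptor subunit of blood cells, changed by 0.42, 0.74 and 0.28 against -0.19, -0.45 and -0.13, a difference of -0.73; its untreated level was 6.46 in wild-type embryo 1 and 4.06 and 4.05 in the others. Nfia changed by -0.11, -0.18 and -0.17 against 0.16, 0.21 and 0.05, a difference of 0.29. The fifth smallest interaction p was that of Zfp949, at 0.54 ± 0.10 (0.554).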

How the results depend on the processing

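No named gene past the threshold turned its direction in an alternative in which it was tested. In many alternatives it could not. Changing the block, the other arrays in the fit, the filter or the moderation leaves the wild-type change itself the same. The direction could turn only with the mean of probe sets, quantile normalization, median centring or a wild-type embryo left out. Of the 109 named genes past the threshold 105 had a value in all 16 alternatives, and 46 of them passed in each. Tent5c, Zfp40, Bex1 and Zfp949 did not reach the filter at the 60th percentile, and of these Zfp40 passed in the other 15. The embryos pair the arrays, so the fits without the replicate block leave the spread between embryos in the error. Without the block 92 genes passed in wild type (78 higher, 14 lower, 2 of them lower by 2-fold) and 68 in labelled knock-out (58 and 10). With all 18 arrays and the block, where the numbers of the 10 h arrays do not pair all of them, the counts were 113 (95, 18 and 3) and 101 (84 and 17), and with 18 arrays and no replicate block 80 (69, 11 and 2) and 67 (57 and 10). Trended robust moderation gave 740 genes (347 higher, 393 lower), of which 362 were among the 375, so that 46.9% rather than 60.3% of the calls were higher. Centring each array on its median left 4 falls of 2-fold and made 71% of the calls higher. The cause of these shifts was not tested. Leaving out 1 embryo gave 180 to 377 genes in wild type (129 to 234 higher, 51 to 146 lower, 38 to 45 and 5 to 12 by 2-fold). The counts were 180 (129 and 51) without wild-type embryo 2, 187 (136 and 51) without embryo 3 and, with 12 falls of 2-fold, 299 without embryo 1. In labelled knock-out the range was 141 to 221 (103 to 161 higher, 31 to 60 lower), with 141 without knock-out embryo 3, 103 rises without embryo 2, and 31 and 33 falls without embryos 1 and 3. The interaction gave 0 genes in each of the 15 alternatives that hold both genotypes. The 3 arrays per group limit what small changes can pass, and most falls, which are small, depend on the block.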

Other observations

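Among 4278 tested probe sets that carried no symbol or several, 55 were higher and 62 lower after 1 h in wild type (limma with Benjamini-Hochberg over all probe sets), which is 2.73% of them, against 1.82% of the probe sets with 1 symbol. The largest fall among them, of a probe set with no symbol, read 8.73, 8.24 and 9.004 before treatment and 5.71, 5.28 and 6.15 at 1 h, a change of -2.95 ± 0.11 with groups far apart, and -1.75 in labelled knock-out cells. The largest rise was 2.28 ± 0.18. Of the 375 named genes past the threshold 183 had another tested probe set, and 243 of these 299 further probe sets moved in the same direction. Of them 78 passed the same way and 1 the opposite way, a probe set of Azin2 at 0.44 against -0.37 for the brightest.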
